A study of Mus musculus with 4 samples.

Results

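The genes described here are 37 transcripts of blood vessels in the mouse cochlea: endothelial cells, which line the vessels, and the mural cells around them, pericytes and smooth muscle cells. They form a list of symbols of genes known from these cells, and all 37 were found among the 17816 genes with a value and were high enough to be tested. The libraries were made from whole cochleae of C57BL/6 mice at postnatal day 10, 2 from Zbtb20 knockout (KO) mice and 2 from wild-type (WT) mice. The genotype labels give Zbtb20 F/F for the KO and Zbtb20 +/+ for the WT, and both genotypes carry a Cre transgene. It is labelled FoxG2-cre in replicate 2 of each genotype and FoxG3-cre in replicate 3 of each. The number in the name follows the replicate number, so whether different Cre lines were used is not known. The labels say neither in which cells the driver acts nor which part of Zbtb20 is flanked, so whether endothelial cells or pericytes lost the gene is not known. Nothing in the labels says that the libraries came from separate animals, so a p-value here measures the spread between libraries and nothing wider.

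Endothelial cells carry receptors for vascular endothelial growth factor (VEGF) and for the angiopoietins, and these signals govern vessel growth and vessel stability. Angiopoietin-1, made by mural and mesenchymal cells, activates the endothelial receptor TEK, while angiopoietin-2 is released by endothelial cells and can oppose it. Endothelial PDGF-B draws in pericytes through their receptor PDGFRB. In the cochlea the densest vessel bed is in the stria vascularis, where tight endothelium and closely spaced pericytes form the blood-labyrinth barrier.

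Levels are in FPKM, fragments per kilobase of a transcript and scaled by the size of its library. Over all genes they summed to 400487 and 398113 in the KO libraries and to 405144 and 391808 in the WT libraries. Depth in fragments is not stated in the tables. Zbtb20 itself stood at 7.35 and 7.41 FPKM in the KO libraries and at 10.94 and 10.67 FPKM in the WT libraries, a WT mean 1.46 times that of the KO (log2 fold change -0.49, adjusted p = 0.0394, limma). That call was lost when any 1 library was left out (-0.48 to -0.51, adjusted p = 0.083 to 0.316) and with no filter on low values (adjusted p = 0.0766). WT replicate 2 stood apart in skeletal muscle transcripts: the 20 listed muscle genes summed to 59.6 and 75.7 FPKM in the KO libraries and to 771.6 and 135.4 FPKM in WT replicates 2 and 3. Genes of myelinating Schwann cells also differed widely, with 15 listed genes summing to 594.5 and 968.0 FPKM in the KO and to 7475.3 and 4230.6 FPKM in the WT.

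Of the vascular transcripts 1, Angpt1, passed the test between KO and WT cochleae, and most of the others differed little. The 37 members together summed to 945.2 and 1007.3 FPKM in the KO libraries and to 1016.2 and 971.8 FPKM in the WT libraries, so the 2 genotypes overlapped. Of the 37, 1 was called higher in the KO (Angpt1) and 0 lower at an adjusted p of 0.05 in limma on log2(FPKM + 1), where 4.43% of all 13966 tested genes were called, 2.38% higher and 2.04% lower. The share of members called, 2.7%, was near that background. Before adjustment, p was under 0.05 for 2 members that were higher (14.3% of all genes) and 6 that were lower (7.74% of all genes), in all 21.6% of members beside 22.0% of genes. The median log2 fold change (KO minus WT) was -0.04 over the members and 0.06 over all tested genes, and the median size of the change was 0.12 and 0.14. Leaving out KO replicate 2 or KO replicate 3 left 0 members called, with 1 gene called in the whole table in each case, and leaving out WT replicate 3 gave 1 higher and 4 lower. In bulk tissue, fewer vessel cells and less RNA per cell cannot be told apart.

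**Figure D1:**
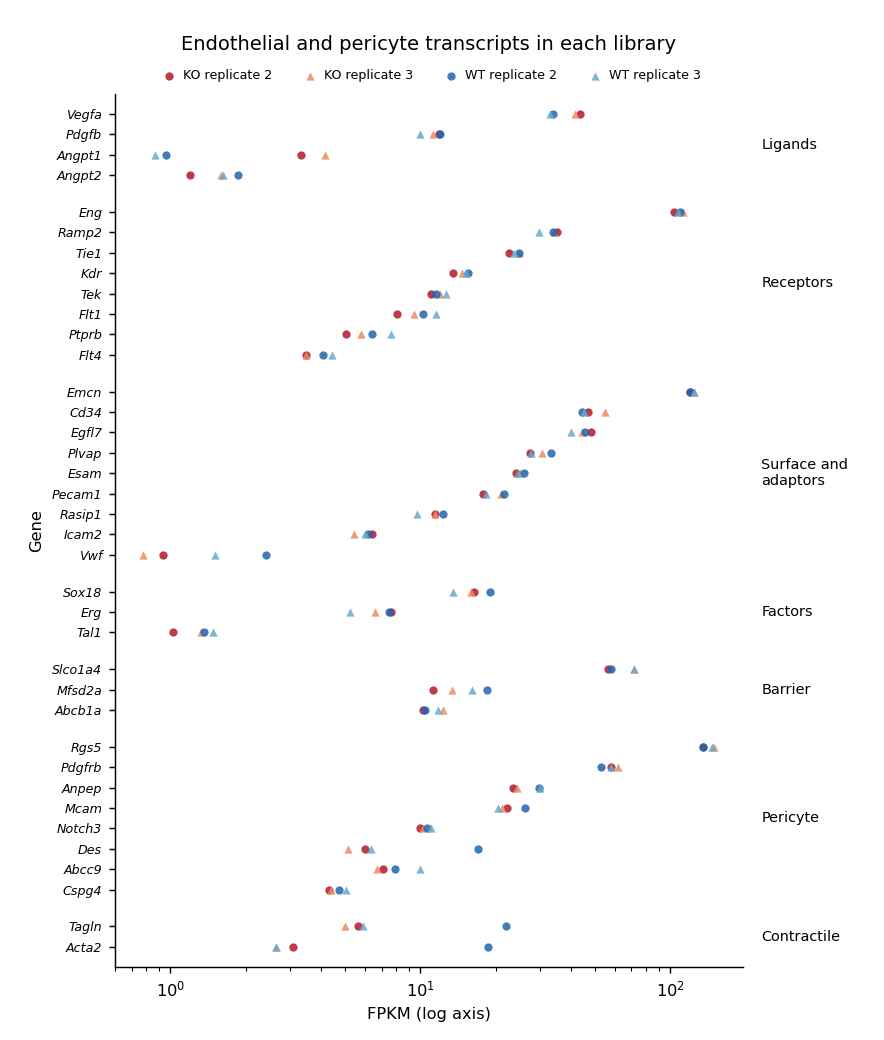
FPKM of the 37 endothelial and pericyte genes on a log axis, 1 row per gene by role and 1 point per library (red or orange, KO; dark or light blue, WT; circle, replicate 2; triangle, replicate 3). Most rows are tight clusters in which KO and WT points mix, Angpt1 has both KO points to the right at 3.32 and 4.15 FPKM, and Des, Tagln and Acta2 each have WT replicate 2 alone on the right.

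A p that misses the threshold does not show equal levels, so the 95% intervals of the fold changes were read as well. For 29 of the 36 members that were not called, the interval lay within a 1.5-fold change of FPKM + 1 in either direction (0.58 on the log2 scale). The 7 whose interval reached further were Ptprb, Mfsd2a, Vwf, Abcc9, Des, Acta2 and Tagln. For low genes the same limit allows a larger change in FPKM itself. With a pseudocount of 0.1, for example, the log2 fold change went from -0.2 to -0.32 for Angpt2 and from -0.16 to -0.26 for Tal1. Both KO libraries lay above both WT libraries in 5 members (13.5%) and below them in 14 (37.8%), where the shares over all tested genes were 37.9% and 17.1%. Of these 19 members, 7 had a fitted log2 change under 0.2 in size and 12 had one of 0.2 or more.

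**Figure D2:**
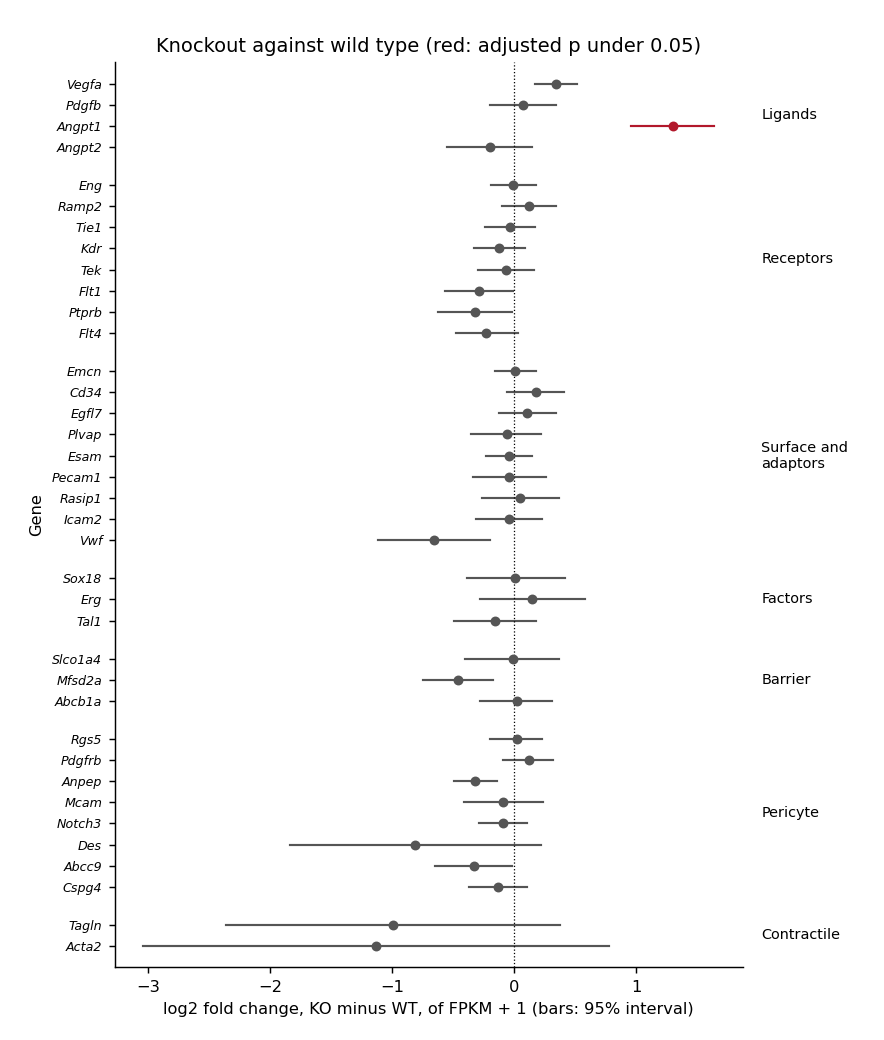
Fitted log2 fold change, KO minus WT, of FPKM + 1 for each gene by role, with bars for the 95% interval of the limma fit on 2 libraries per genotype. Angpt1, in red, is the 1 gene past an adjusted p of 0.05, at 1.3, and the bars of Des, Tagln and Acta2 are the widest.

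Among the 4 growth factor ligands 1 rose and 0 fell, with a median log2 fold change of 0.21. Angpt1, the gene of angiopoietin-1, had 3.32 and 4.15 FPKM in the KO libraries and 0.96 and 0.87 FPKM in the WT libraries. Both KO libraries lay well above both WT libraries. The KO mean of 3.735 ± 0.587 FPKM was 4.08 times the WT mean of 0.915 ± 0.0636 FPKM (SD, n = 2 libraries each), a log2 fold change of 1.3 ± 0.13 (SE; adjusted p = 0.013, limma). The gene lies on chromosome 15 from 42424667 to 42676977 on the minus strand of GRCm38, the assembly of the authors' mm10 build, and 14.2% of its exon bases overlap the transcript model Gm17473 on the other strand. The sources used here do not give whether counting was by strand. The adjusted p of Angpt1 ran from 0.00318 to 0.158 over the alternatives, with the call lost without KO replicate 2 (log2 fold change 1.43, adjusted p = 0.15) and without KO replicate 3 (1.17, adjusted p = 0.158).

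Of 9 marker lists of other cell types, 3 had sums higher in both KO libraries, like Angpt1, and 5 had sums lower in both. The lower ones were the muscle and Schwann cell lists, the erythroid genes, 8 osteoblast genes and 9 genes of hair and supporting cells. The osteoblast genes summed to 927.8 and 1270.4 FPKM in the KO against 1302.8 and 1684.6 FPKM in the WT. Of these 8, 1 was called higher (Spp1) and 1 lower (Mepe). The genes of hair and supporting cells summed to 807.8 and 826.5 FPKM in the KO against 907.3 and 987.7 FPKM in the WT. Most of each sum was Gjb2, at 577.48 and 598.35 FPKM in the KO and 625.56 and 689.96 FPKM in the WT. Of these 9, 1 was called higher (Tecta) and 1 lower (Otogl). Of 18 tested muscle genes, 3 lay lower in both KO libraries, beside 17.1% of all tested genes. The muscle sum of 135.4 FPKM in WT replicate 3 was mostly Pvalb (75.73 FPKM) and Mybpc1 (45.37 FPKM). These genes had 12.9 and 29.4 FPKM in KO replicate 2 and 31.82 and 30.45 FPKM in KO replicate 3. The gap in the muscle sum between WT replicate 3 and the KO libraries rested mainly on them. Most other muscle genes were high in WT replicate 2 alone. Among the higher ones, the 12 macrophage genes summed to 228.8 and 228.2 FPKM in the KO and to 188.0 and 170.5 FPKM in the WT, with 1 of 12 called higher and 0 lower. The 9 melanocyte genes, of the pigmented intermediate cells of the stria, summed to 301.9 and 293.1 FPKM in the KO and to 100.7 and 101.4 FPKM in the WT, with 5 of 8 tested called higher and 1 lower. The 11 genes of fibrocytes and fibroblasts summed to 10399.9 and 10713.5 FPKM in the KO and to 9037.1 and 7965.6 FPKM in the WT, with 2 called higher and 2 lower. That direction rested on Otor, the gene of the fibrocyte protein otoraplin, singled out after its values were seen, without which the other 10 summed to 5751.1 and 6045.5 FPKM in the KO and to 6925.6 and 6049.1 FPKM in the WT. None of the genes of the 3 higher lists was at 0 in any library, and their part in the level of Angpt1 was not tested.

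Angpt2, the gene of the second angiopoietin, had 1.2 and 1.59 FPKM in the KO libraries and 1.87 and 1.63 FPKM in the WT libraries (log2 fold change -0.2 ± 0.14, adjusted p = 0.436, limma). FPKM is per length of transcript, so the pair can be set against each other within a library, a ratio chosen after the values were seen. There were 2.77 and 2.61 Angpt1 transcripts per Angpt2 transcript in the KO libraries, against 0.513 and 0.534 in the WT libraries. Angpt1 was thus the more abundant angiopoietin transcript in both KO libraries and the less abundant one in both WT libraries. With 2 libraries against 2, an exact permutation test of 1 such value cannot go below p = 0.333.

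Vegfa, which encodes the main growth factor of endothelial cells, had 43.68 and 41.64 FPKM in the KO libraries and 33.99 and 32.95 FPKM in the WT libraries. The genotypes did not overlap and the KO mean was 1.27 times the WT mean, but the change of 0.34 ± 0.07 on the log2 scale did not pass (adjusted p = 0.0649, limma). Pdgfb, the endothelial ligand for pericytes, had 11.86 and 11.21 FPKM in the KO and 11.94 and 10.01 FPKM in the WT, and the genotypes overlapped.

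**Figure D3:**
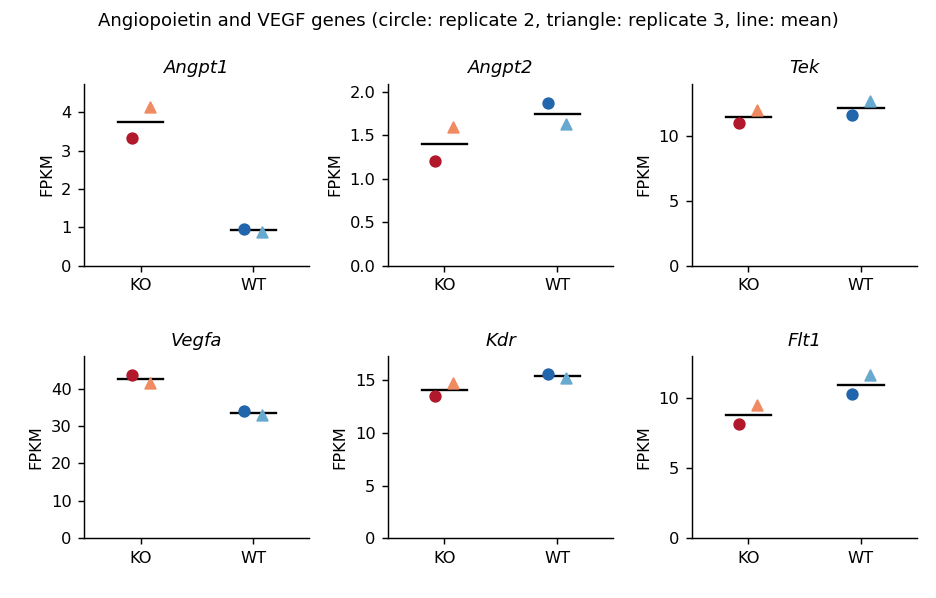
FPKM of Angpt1, Angpt2 and their receptor gene Tek, and of Vegfa and its receptor genes Kdr and Flt1, with 1 point per library, KO left of WT, and a line at the mean of the 2 libraries; each axis starts at 0. Angpt1 is at 3.32 and 4.15 FPKM in the KO and 0.96 and 0.87 FPKM in the WT, while Tek overlaps between genotypes.

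Start-site windows of 4 members follow, to show the sequence context of the ligand Vegfa, of its receptor gene Kdr, and of the contractile and filament genes Acta2 and Des, which were both high in the same WT library. Each window runs from 250 bases before to 50 bases after an annotated start, in RefSeq on GRCm38.p6, and is written 5′ to 3′ on the strand of the gene. The windows are chr17:46032328-46032627 (minus strand) for Vegfa, chr5:75978406-75978705 (minus) for Kdr, chr19:34255324-34255623 (minus) for Acta2 and chr1:75360042-75360341 (plus) for Des. Capitals mark matches on either strand to 3 motifs. The core bound by ETS factors such as ERG was searched as GGAAGT. The GC box, bound by SP factors, was searched as GGGCGG. The TATA box, which places the start of transcription, was searched as TATANA. No marked match overlaps another.
Vegfa: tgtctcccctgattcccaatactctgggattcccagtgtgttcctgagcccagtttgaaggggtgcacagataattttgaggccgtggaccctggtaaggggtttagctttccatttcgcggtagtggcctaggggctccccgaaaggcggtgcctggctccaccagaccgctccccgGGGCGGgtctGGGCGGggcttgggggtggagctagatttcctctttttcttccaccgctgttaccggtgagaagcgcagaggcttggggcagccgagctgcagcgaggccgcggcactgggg
Kdr: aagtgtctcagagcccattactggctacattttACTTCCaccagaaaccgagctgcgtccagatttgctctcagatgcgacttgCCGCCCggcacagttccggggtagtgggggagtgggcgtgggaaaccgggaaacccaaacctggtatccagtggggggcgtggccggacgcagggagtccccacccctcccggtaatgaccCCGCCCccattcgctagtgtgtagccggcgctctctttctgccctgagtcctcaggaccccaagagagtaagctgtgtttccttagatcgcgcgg
Acta2: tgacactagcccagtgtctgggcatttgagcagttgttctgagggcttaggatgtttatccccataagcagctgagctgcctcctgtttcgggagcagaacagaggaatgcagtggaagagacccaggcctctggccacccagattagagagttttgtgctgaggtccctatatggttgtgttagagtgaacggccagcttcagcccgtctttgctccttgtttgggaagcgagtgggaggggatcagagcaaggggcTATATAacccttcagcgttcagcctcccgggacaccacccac
Des: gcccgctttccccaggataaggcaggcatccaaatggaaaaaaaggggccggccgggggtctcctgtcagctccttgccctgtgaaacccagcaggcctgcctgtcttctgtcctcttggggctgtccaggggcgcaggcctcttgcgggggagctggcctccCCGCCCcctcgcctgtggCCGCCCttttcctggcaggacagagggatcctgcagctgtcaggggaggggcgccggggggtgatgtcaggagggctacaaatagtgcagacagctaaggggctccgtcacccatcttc
The Vegfa window printed held 2 GC boxes and no other marked motif, and was 62.0% G and C. Vegfa has a further start window, not printed, that held an ETS core. The Kdr window held 1 ETS core and 2 GC boxes (60.7% G and C). Acta2 had 1 TATA box and no GC box, while Des had 2 GC boxes and no TATA box. RefSeq windows were at hand for 24 of the 37 members, and all of a gene's windows were searched. An ETS core was in those of 7 of the 24 (29.2%), beside 26.5% of 27025 genes. A GC box was in 13 (54.2%, beside 38.2%) and a TATA box in 5 (20.8%, beside 27.9%), each searched exactly. The CArG box, the element bound by serum response factor in smooth muscle genes, had no exact match to its consensus in 24 (beside 1.81% of genes). With 1 letter allowed to differ, the Acta2 window held 2 such runs, and the windows of 12 of 24 members held any (beside 23.8% of genes). A match is a run of letters, and binding was not measured here.

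Of the 8 endothelial receptor genes and their partners, 0 were called in either direction (limma), and before adjustment 0 higher and 2 lower had p under 0.05. Over all tested genes these shares were 14.3% higher and 7.74% lower, the background for each group below as well. Kdr, which encodes the main signalling receptor for VEGF, had 13.46 and 14.71 FPKM in the KO libraries and 15.58 and 15.23 FPKM in the WT libraries. Both KO libraries were lower, by a mean of 0.12 ± 0.08 on the log2 scale (adjusted p = 0.427). Flt1, the gene of the VEGF receptor that also acts as a decoy, had 8.1 and 9.45 FPKM in the KO and 10.25 and 11.58 FPKM in the WT (-0.29 ± 0.11, adjusted p = 0.222). Flt4, the receptor gene for the lymphatic growth factor VEGF-C, had 3.5 and 3.48 FPKM in the KO and 4.07 and 4.45 FPKM in the WT (-0.23 ± 0.1, adjusted p = 0.26). The 3 VEGF receptor genes thus lay lower in both KO libraries, as did 17.1% of all tested genes, and none of the differences passed.

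Tek, the angiopoietin receptor gene, had 11.01 and 11.98 FPKM in the KO libraries and 11.59 and 12.68 FPKM in the WT libraries, and the genotypes overlapped (-0.07 ± 0.09, adjusted p = 0.674, limma; 95% interval -0.3 to 0.16). Tie1, the gene of the related orphan receptor, had 22.58 and 24.8 FPKM in the KO and 24.81 and 23.71 FPKM in the WT. Receptor transcripts of the TIE family therefore overlapped where the ligand Angpt1 did not. Ptprb, which encodes the phosphatase that silences TEK, had 5.05 and 5.78 FPKM in the KO and 6.43 and 7.6 FPKM in the WT, lower in both KO libraries without passing (-0.32 ± 0.12, adjusted p = 0.208). Eng, the gene of the TGF-beta co-receptor endoglin, was level at 103.61 and 112.52 FPKM in the KO and 109.38 and 107.6 FPKM in the WT. Ramp2, the partner of the adrenomedullin receptor, had 35.3 and 34.16 FPKM in the KO and 33.95 and 29.85 FPKM in the WT. Of its exon bases 33.4% are shared with models of the neighbouring Vps25 on the same strand.

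Among 9 genes of the endothelial surface, its junctions, secreted products and adaptors, 0 were called (limma; with p under 0.05 before adjustment, 0 higher and 1 lower). Emcn, the gene of the sialomucin endomucin and the highest of the group, had 120.62 and 124.9 FPKM in the KO libraries and 119.75 and 124.02 FPKM in the WT libraries. Its fold change of 0.01 ± 0.07 had a 95% interval from -0.16 to 0.18. Pecam1, the junctional adhesion gene, had 17.8 and 21.02 FPKM in the KO and 21.53 and 18.39 FPKM in the WT, with the genotypes mixed. Esam, Icam2, Plvap, Egfl7 and Rasip1, which encode 2 adhesion molecules, the diaphragm protein of fenestrated endothelium, a secreted matrix factor and an adaptor of vessel lumen formation, also overlapped between genotypes, with fold changes from -0.06 to 0.11. Cd34, a sialomucin gene of endothelium and blood progenitors, had 47.04 and 54.8 FPKM in the KO and 44.33 and 45.29 FPKM in the WT, higher in both KO libraries without passing (0.18 ± 0.09, adjusted p = 0.327).

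Vwf, the gene of von Willebrand factor, which endothelium of larger vessels and megakaryocytes store, was the exception in size within this group. It had 0.93 and 0.78 FPKM in the KO libraries and 2.42 and 1.51 FPKM in the WT libraries, so that both KO libraries were lower and the WT mean was 2.3 times the KO mean. The change of -0.66 ± 0.18 did not pass (adjusted p = 0.122, limma), and it did pass without WT replicate 3 (-0.88, adjusted p = 0.0454) but not without WT replicate 2 (-0.44, adjusted p = 0.191). The WT libraries themselves differed 1.6-fold. Of 8 megakaryocyte and platelet genes 7 had a value and summed to 37.4 and 29.4 FPKM in the KO and to 30.1 and 24.2 FPKM in the WT, with 1 of these genes at 0 in WT replicate 2. The 1 call among 4 tested was Pf4, higher in the KO. Macrophages also make Pf4. Without it the other 6 summed to 13.7 and 9.9 FPKM in the KO and to 17.4 and 15.0 FPKM in the WT. Gp1bb made up most of that sum, which was lower in both KO libraries. It had 8.09 and 5.7 FPKM in the KO and 12.43 and 10.05 FPKM in the WT. Nfe2 had a mean of 2.255 FPKM in each genotype. Of the 4 tested genes, 1 lay higher in both KO libraries and 2 lower, beside 37.9% and 17.1% of all tested genes. The part of megakaryocytes and platelets in the level of Vwf was not tested.

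The 3 transcription factor genes gave 0 calls (limma; 0 with p under 0.05 before adjustment). Erg, which encodes an ETS factor that maintains endothelial identity, had 7.63 and 6.59 FPKM in the KO libraries and 7.5 and 5.25 FPKM in the WT libraries. Sox18, a factor gene of arterial and lymphatic development, had 16.45 and 15.98 FPKM in the KO and 19.05 and 13.48 FPKM in the WT, with both KO values between the WT values. Tal1, which acts in blood and endothelial precursors and in red cell precursors, had the lowest mean over all 4 libraries among the members, at 1.02 and 1.33 FPKM in the KO and 1.36 and 1.48 FPKM in the WT. Erythroid genes (11 with a value) summed to 772.4 and 688.4 FPKM in the KO and to 1264.2 and 916.5 FPKM in the WT, with 0 higher and 2 lower of 9 tested and none at 0 in any library. Their part in the level of Tal1 was not tested.

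The barrier transporter genes differed among themselves, with 0 of 3 called (limma; with p under 0.05 before adjustment, 0 higher and 1 lower). Slco1a4, an organic anion transporter gene of barrier endothelium in mouse, had 56.53 and 71.8 FPKM in the KO libraries and 58.05 and 71.34 FPKM in the WT libraries. Its spread lay between the replicate numbers and not between the genotypes, with replicate 2 the lower in both. Abcb1a, which encodes the efflux pump P-glycoprotein, had 10.27 and 12.31 FPKM in the KO and 10.47 and 11.76 FPKM in the WT. Both belong to families with close paralogs, between which fragments may have been divided by estimation. Mfsd2a, the gene of the lysolipid transporter that keeps transcytosis low in brain endothelium, had 11.28 and 13.38 FPKM in the KO and 18.45 and 16.15 FPKM in the WT. Both KO libraries were lower, the WT mean was 1.4 times the KO mean, and the change of -0.46 ± 0.12 did not pass (adjusted p = 0.104, limma). Mfsd2a lies on chromosome 4 from 122946850 to 122961194 on the minus strand.

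**Figure D4:**
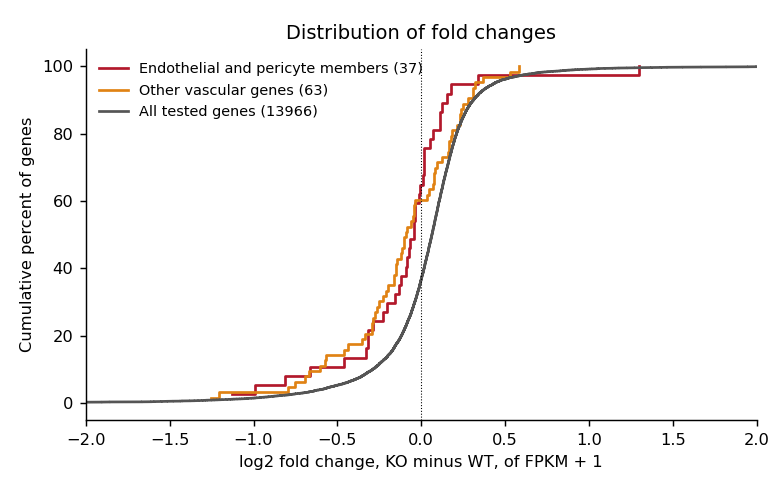
Cumulative share of genes, in percent, against the log2 fold change (KO minus WT, of FPKM + 1) for the 37 members, 63 other tested vascular genes and all 13966 tested genes; the axis is limited to changes from -2 to 2. The members' curve crosses its middle at -0.04 and that of all genes at 0.06, and the 1 step far to the right at 1.3 is Angpt1.

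Pericyte transcripts gave no call. Of 8 members 0 were called (limma; with p under 0.05 before adjustment, 0 higher and 2 lower), with a median log2 fold change of -0.11. Rgs5, a regulator of G protein signalling and the highest of all 37 members, had 135.76 and 149.83 FPKM in the KO libraries and 134.94 and 147.42 FPKM in the WT libraries (0.02 ± 0.09; 95% interval -0.2 to 0.23). Pdgfrb, the receptor gene through which pericytes are recruited, had 58.07 and 62.05 FPKM in the KO and 52.85 and 57.94 FPKM in the WT (0.12 ± 0.08, adjusted p = 0.441). Both KO values of Pdgfrb were above both WT values, and the gap between KO replicate 2 and WT replicate 3 was smaller than the gap between the WT libraries. Fibroblasts also express Pdgfrb.

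Anpep, which encodes the membrane peptidase CD13, had 23.44 and 24.44 FPKM in the KO libraries and 29.96 and 30.12 FPKM in the WT libraries. The genotypes were well apart, with a WT mean 1.25 times the KO mean, and the change of -0.32 ± 0.07 did not pass (adjusted p = 0.0769, limma), although it passed when each library was rescaled by its median of ratios (-0.39, adjusted p = 0.0463). Abcc9, the sulfonylurea receptor subunit of the pericyte ATP-sensitive potassium channel, had 7.07 and 6.7 FPKM in the KO and 7.95 and 9.99 FPKM in the WT (-0.33 ± 0.12, adjusted p = 0.21). Notch3, the mural Notch receptor gene, and Cspg4, which encodes the proteoglycan NG2, were lower in both KO libraries by 0.09 ± 0.08 and 0.13 ± 0.09 on the log2 scale, and neither passed. Mcam, an adhesion molecule gene of mural and endothelial cells, had 22.21 and 21.21 FPKM in the KO and 26.21 and 20.39 FPKM in the WT, with both KO values between those of the WT.

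The contractile genes and Des were high in 1 of the WT libraries. Acta2, the gene of smooth muscle actin, had 3.1 and 2.65 FPKM in the KO libraries and 18.73 and 2.64 FPKM in WT replicates 2 and 3. Tagln, which encodes the actin-binding protein transgelin, had 5.64 and 5.02 FPKM in the KO and 21.97 and 5.88 FPKM in WT replicates 2 and 3. Des, the gene of the muscle filament desmin, which pericytes also make, had 6.0 and 5.13 FPKM in the KO and 16.95 and 6.36 FPKM in WT replicates 2 and 3. In all 3 genes WT replicate 2 stood alone above the other libraries, at 6.51, 4.12 and 3.05 times the KO mean.

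In WT replicate 3 the levels of Acta2, Tagln and Des were 0.918, 1.1 and 1.14 times the KO mean. None of the 3 was called over all 4 libraries (adjusted p = 0.426, 0.343 and 0.312, limma). Without WT replicate 2 the log2 fold changes were 0.09, -0.12 and -0.17, and without WT replicate 3 they were -2.35, -1.86 and -1.45 with adjusted p = 0.00272, 0.00402 and 0.0098. In the same library 14 of the 20 skeletal muscle genes were over 10 times their level in each of the other 3 libraries, and 1, 3 and 2 of the 20 were at 0 in KO replicate 2, KO replicate 3 and WT replicate 3. Some smooth muscle genes were high there as well. Of 12 others with a value, Actg2, Cnn1, Myh11, Myocd and Tpm2 were over 2 times their level in each of the other libraries. Myocd, though, was at 0.05 FPKM there. In all, 9 of the 12 were highest in WT replicate 2, some by little. Lmod1, for example, was at 3.82 FPKM there and 2.97 FPKM in WT replicate 3. The share of all genes that were highest in that library was not counted. Myh11, the smooth muscle myosin gene, had 0.98 and 0.88 FPKM in the KO and 3.14 and 1.08 FPKM in WT replicates 2 and 3. The collagen gene Col1a1, named after its values were seen, had 74.42 and 74.03 FPKM in the KO and 567.74 and 100.71 FPKM in WT replicates 2 and 3. The part of RNA from skeletal muscle, smooth muscle or connective tissue in the level of the 3 genes was not tested. Of the exon bases of Tagln, 67.9% overlap Pcsk7 or the model Gm48529 on the other strand.

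**Figure D5:**
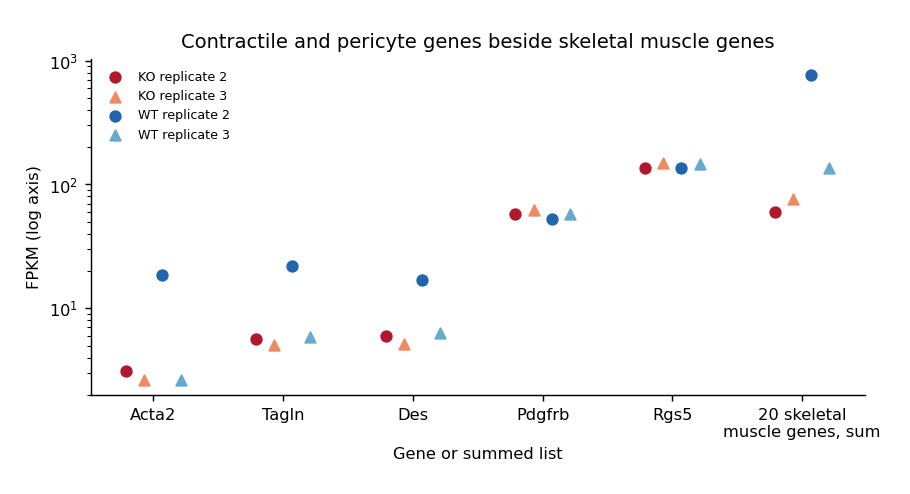
FPKM on a log axis of Acta2, Tagln and Des, of the pericyte genes Pdgfrb and Rgs5, and of the sum of 20 skeletal muscle genes, with 1 point per library, KO left of WT. WT replicate 2 is alone high for the first 3 genes (18.73, 21.97 and 16.95 FPKM) and for the muscle sum (771.6 FPKM), and lies with the other libraries for Pdgfrb and Rgs5.

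Vascular genes outside the 37 members gave 1 call higher and 2 lower among 63 tested (4.76%, beside 4.43% of all genes), with a median log2 fold change of -0.09. Apln, the gene of apelin, a peptide of sprouting endothelium, had 3.48 and 3.71 FPKM in the KO libraries and 2.09 and 2.03 FPKM in the WT libraries, and rose 1.75-fold (0.59 ± 0.1, adjusted p = 0.0477, limma). It was the 1 call among 27 other endothelial genes tested. Of these, 6 lay higher in both KO libraries and 11 lower, beside 37.9% and 17.1% of all tested genes. Before adjustment, p was under 0.05 (limma) for 4 that were higher and 3 that were lower. Cdh5, the VE-cadherin gene that defines endothelium, had 32.67 and 32.25 FPKM in the KO and 31.83 and 29.64 FPKM in the WT. Both KO values were higher, by a mean of 0.08 ± 0.07 on the log2 scale (adjusted p = 0.565, limma). Vtn, the gene of the matrix protein vitronectin, which brain pericytes make in mouse, had 9.47 and 9.9 FPKM in the KO and 15.02 and 14.66 FPKM in the WT. It fell, with a WT mean 1.53 times the KO mean (-0.57 ± 0.08, adjusted p = 0.0262), and was the 1 call among 12 other pericyte genes. The calls of Apln and Vtn were lost when any 1 library was left out, at log2 fold changes of 0.55 to 0.62 for Apln (adjusted p = 0.08 to 0.316) and -0.6 to -0.54 for Vtn (adjusted p = 0.0571 to 0.269). They were also lost with no filter on low values (adjusted p = 0.0882 for Apln and 0.0539 for Vtn), and that of Apln was lost under median-of-ratios rescaling (0.53, adjusted p = 0.06).

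Reln, the gene of the matrix protein reelin, which lymphatic endothelium and also neurons make, had 0.79 and 0.95 FPKM in the KO libraries and 3.73 and 3.19 FPKM in the WT libraries. It fell (-1.25 ± 0.13, adjusted p = 0.0122, limma) and was the 1 call among 5 lymphatic genes. Of these 5, 2 lay lower in both KO libraries, Reln and Prox1, and 1 lay higher, beside 17.1% and 37.9% of all tested genes. Prox1 had 0.53 and 0.63 FPKM in the KO and 1.14 and 2.3 FPKM in the WT, without passing (adjusted p = 0.146, limma). The lymphatic marker Lyve1 had 0.97 and 1.13 FPKM in the KO and 0.99 and 0.37 FPKM in the WT, and the genotypes overlapped. The call of Reln was lost without KO replicate 2 (adjusted p = 0.171) and without KO replicate 3 (adjusted p = 0.145). Of 10 other VEGF, angiopoietin and PDGF family genes tested 0 were called (limma; with p under 0.05 before adjustment, 2 higher and 1 lower). The lowest p-values there were those of Pgf, the placental growth factor gene (-0.46 ± 0.14, adjusted p = 0.137), and of Pdgfd, a ligand gene for PDGFRB (0.25 ± 0.09, adjusted p = 0.182). Of 9 other smooth muscle genes 0 were called (limma; with p under 0.05 before adjustment, 1 higher and 1 lower). Smtn, the smoothelin gene, had 25.41 and 23.56 FPKM in the KO and 51.05 and 36.63 FPKM in the WT (adjusted p = 0.0643), and Cald1, the caldesmon gene, had 96.04 and 105.76 FPKM in the KO and 81.16 and 84.83 FPKM in the WT (adjusted p = 0.127).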

How the data were processed

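Gene levels were deposited as FPKM, in a table for each of the 4 libraries, per the file headers. The submitters' processing notes name RSEM 1.2.12, Bowtie2 2.2.5, HISAT2 2.0.4 and mm10, with no roles. Each table had 20777 rows, of which 2961 held no value. Left out were 4 further columns of sample values, a copy of wild-type replicate 2 in each table. Groups and replicate numbers came from the sample titles.

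The filter on low values asked for a mean of 0.5 FPKM or more over the fitted libraries, which 13966 genes passed with all 4. On log2(FPKM + 1), limma 3.58.1 (R 4.3.3) fitted genotype alone, with a trend of variance on intensity. P-values were two-sided and adjusted over all genes tested by the Benjamini-Hochberg method, with a threshold of 0.05. The pseudocount of 1 understates changes of low genes. The fit was tested on simulated data with 200 changed genes. An error after a log2 fold change is its SE.

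All 37 members are reported. Outside them, each vascular list gives its called genes, or the 2 with the smallest p, and the marker lists give summed FPKM. Cdh5, Lyve1, Prox1, Otor and Col1a1 were named after their values were seen. So were Gp1bb, Nfe2, Pvalb, Mybpc1, Lmod1, Dll4 and Gja4, and also Gjb2, Spp1, Mepe, Tecta, Otogl and Cd163. Members and lists were chosen with earlier results of these data known. Gene positions are from RefSeq (GRCm38.p6), and strands and exon overlaps from GENCODE vM21 (GRCm38).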

Additional observations from a re-analysis of the deposited data

How the results depend on the processing

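Angpt1 was higher in every alternative (log2 fold change 1.17 to 1.91). Members called higher numbered 1 and lower 0 with all 4 libraries. Leaving out 1 library in turn gave 0 to 1 higher and 0 to 4 lower, and 0 to 7 calls among the other vascular genes, which had 3. Median-of-ratios rescaling, which moved the median of all genes by -0.07, gave 1 member lower (Anpep) and a member median of -0.12. It turned the split of all calls to 243 higher and 355 lower, from 333 and 285. The total of 618 calls was 266 without the filter on low values.

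Fitting the replicate number as a block gave 2 members higher, Angpt1 and Vegfa (adjusted p = 0.00318 and 0.0117), and 4 lower, Anpep, Vwf, Mfsd2a and Flt1 (adjusted p = 0.0181, 0.0298, 0.0384 and 0.0484). It gave 12 calls among the other vascular genes and 2353 among all genes. Same-numbered libraries deviated together (correlation 0.403 across genes), and the labels give the same Cre name to libraries of the same number. They name no shared litter, batch or day, and there are 2 pairs, so the numbers were not taken to pair the samples.

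The sign of some uncalled members changed. Most were near 0, and Acta2 was at -1.13. Under rescaling Emcn was at -0.07, Abcb1a at -0.05, Sox18 at -0.06, Rasip1 at -0.02 and Rgs5 at -0.06. Leaving out 1 library in turn gave -0.15 to 0.08 for Pecam1, -0.1 to 0.03 for Tie1, -0.01 to 0.04 for Emcn, -0.07 to 0.05 for Eng, -0.1 to 0.14 for Abcb1a, -0.18 to 0.16 for Slco1a4, -0.07 to 0.37 for Erg, -0.22 to 0.25 for Sox18, -0.19 to 0.06 for Plvap, -0.1 to 0.21 for Rasip1, -0.14 to 0.06 for Icam2, -0.05 to 0.19 for Pdgfb, -0.05 to 0.09 for Rgs5, -0.26 to 0.09 for Mcam and -2.35 to 0.09 for Acta2. The causes were not tested. A fit with 1 library in a genotype assumes that it varies like the other genotype's. The depth in fragments is unknown, which limits what can be said of low genes such as Vwf and Tal1.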

Other observations

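Genes that mark arteries and veins were chosen after their values were seen. Efnb2, the ephrin gene of arterial endothelium, which other cochlear cells also express, had 24.12 and 24.72 FPKM in the KO libraries and 30.31 and 31.93 FPKM in the WT libraries. Ephb4, the receptor gene of venous endothelium, had 41.36 and 39.61 FPKM in the KO and 31.54 and 33.03 FPKM in the WT. Both genes had genotypes that did not overlap, and neither passed (adjusted p = 0.0703 and 0.0791, limma). Over all tested genes, 37.9% lay above in both KO libraries and 17.1% below. Dll4 and Gja4, of the same list of endothelial genes, overlapped between genotypes. Dll4 had 7.05 and 7.6 FPKM in the KO and 7.01 and 8.79 FPKM in the WT. Gja4 had 12.93 and 10.6 FPKM in the KO and 15.3 and 11.39 FPKM in the WT. Aplnr, the receptor gene for apelin, had 21.64 and 27.54 FPKM in the KO and 15.34 and 17.94 FPKM in the WT, beside the rise of its ligand gene Apln (adjusted p = 0.113).

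Among macrophage genes, Mrc1, the mannose receptor gene that marks macrophages along vessels, rose to 12.06 and 12.75 FPKM in the KO, against 8.28 and 8.28 FPKM in the WT (adjusted p = 0.0335, limma). It was the 1 call among 12 macrophage genes, of which 9 lay higher in both KO libraries and 0 lower. Over all tested genes these shares were 37.9% and 17.1%. Cd163, of the same list, overlapped between genotypes, at 1.06 and 0.91 FPKM in the KO and 0.97 and 0.51 FPKM in the WT. Pf4, listed as a platelet gene and also made by tissue macrophages, rose to 23.67 and 19.53 FPKM in the KO, against 12.61 and 9.2 FPKM in the WT (adjusted p = 0.0493). How the calls of Mrc1 and Pf4 held under the alternatives is not given here.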
